A study of Artemisia argyi with 3 samples.

Results

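The root and stem transcriptomes of mature *Artemisia argyi* Lev. et Vant., a mugwort whose dried leaves are burned in moxibustion, were compared over all 88,591 unigenes of the expression table. A unigene is a non-redundant sequence assembled from the reads without a genome. The comparison used 2 of the 3 libraries of the series, root and stem, and the leaf library served as another readout of the same unigenes. All 3 tissues were described as normal, no treatment is given in the labels, and each library was made from the pooled tissue of several plants, so there was 1 value per unigene and tissue, with no replicate. Every difference given here is therefore a difference between a pair of libraries, without a p-value, a standard deviation or a replicate check. Values are FPKM, a fragment count corrected for the length of the unigene and for the sequencing yield of its library. Read counts and lengths were not used here, and the counting error of a single value is unknown. A total of 82,013 unigenes were above 0 in root or in stem. Identifiers are not paired with gene names in the table, so the tissue labels could not be checked against marker genes, and enzymes were named only for the 7 unigenes that the study cloned.

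Roots take up water and ions and anchor the plant, while stems carry the vascular transport between root and leaf and hold green outer tissue. In both, terpenoids are built from isopentenyl diphosphate and its isomer, which plants make by separate routes. The mevalonate pathway runs mainly outside the plastids and feeds sesquiterpenes and sterols. The methylerythritol phosphate (MEP) pathway runs in plastids and feeds monoterpenes, carotenoids and the side chain of chlorophyll.

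The root library was the more concentrated of the pair. Its most abundant unigene, CL48.Contig9, reached 20278 FPKM and held 2.96% of the root FPKM sum, whereas the most abundant unigene of the stem library, CL1697.Contig3, reached 2839 FPKM and held 0.388% of the stem sum. The 100 most abundant unigenes held 19.3% of the sum in root and 12.3% in stem, and the 1000 most abundant held 49.4% and 39.7%. Above 1000 FPKM there were 41 unigenes in root and 23 in stem, although more unigenes exceeded 100 FPKM in stem (1240) than in root (1134). Of the 100 most abundant unigenes of each library, 48 were shared, which is 48.0% of either list. Among the root list 12 unigenes, and among the stem list 19, were at least 8-fold higher in their own library on the scale of FPKM + 1. Over all 88,591 unigenes the shares were 0.833% in root and 0.92% in stem. Each list was picked by FPKM in its own library, which favours calls in that direction.

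The 5 most abundant root unigenes were all cluster contigs. After CL48.Contig9, with 430 FPKM in stem, came CL10745.Contig3, with 5750 FPKM in root and 382 in stem. CL11355.Contig1 followed with 3896 FPKM in root and 839 in stem. The values were much closer for CL1697.Contig3, with 3372 FPKM in root and 2839 in stem. CL5943.Contig5 had 3104 FPKM in root and 1105 in stem. The first 3 thus exceeded their stem value at least 4.64-fold, and the abundance of CL1697.Contig3 differed by 1.19-fold. That cluster was even throughout: all 5 of its contigs were higher in root, by at most 0.51 on the log2 scale.

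In stem, CL1697.Contig3 was followed by CL6678.Contig3, with 2492 FPKM in stem and 791 in root. Unigene13328 had 1837 FPKM in stem and 2.90 in root. CL5199.Contig3 had 1635 FPKM in stem and 4.76 in root, and CL11277.Contig1 had 1569 in stem and 270 in root. The abundant stem unigenes thus included some that were also abundant in root and some below 5 FPKM there. Unigene13328 and CL5199.Contig3 were low in leaf as well, at 5.76 and 2.31 FPKM.

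Expression of a unigene is counted here above 1 FPKM, the threshold of the study. By this measure 28,565 unigenes were expressed in both root and stem, 12,951 in root but not in stem and 16,185 in stem but not in root. The shared unigenes made up 49.5% of all those expressed in either tissue. At the edge of the threshold, 128 unigenes had a lower value of 1.01 FPKM, just inside, with a median of 2.15 FPKM in the other library, and 114 had a lower value of exactly 1 FPKM, just outside, with a median of 2.03. Detection at any level above 0 was shared by 51,814 unigenes, while 15,243 were above 0 in root and listed at 0 in stem, and 14,956 the reverse.

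On the scale of log2((root FPKM + 1)/(stem FPKM + 1)), which damps the change of low unigenes, the median over all unigenes was -0.24, with quartiles of -0.84 and 0.43. A value below 0 means higher in stem. At least 2-fold higher in root were 12,607 unigenes (14.2%), and at least 2-fold higher in stem were 17,522 (19.8%). At 8-fold, 738 were higher in root (0.833%) and 815 in stem (0.92%). This last order depended on the settings, with 1,802 in root and 1,533 in stem at a pseudocount of 0.5, and 11,844 and 10,360 at 0.1. Over the 28,565 shared unigenes, without a pseudocount, the balance lay further towards stem. The median log2 ratio was -0.49, with quartiles of -1.16 and 0.17, and 2,383 unigenes were at least 2-fold higher in root (8.34%) against 8,659 in stem (30.3%). At 8-fold, 213 were higher in root (0.746%) and 564 in stem (1.97%). The number of stem unigenes per root unigene was 3.20 at 1.5-fold, 3.63 at 2-fold, 2.43 at 16-fold, 1.10 at 64-fold, where 21 were higher in root and 23 in stem, and 1.31 at 100-fold. After the median-ratio scaling described next it was 0.858 at 2-fold, 0.864 at 16-fold and 0.792 at 64-fold. That scaling centres the ratios by construction, so the lack of a stem excess is no separate finding.

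This balance depended on how the libraries were put on a common scale. With the libraries at equal sums (TPM), 3,300 unigenes above 1 in both were at least 2-fold higher in root and 9,619 in stem. Without the 100 most abundant of each library, and the rest scaled to equal sums, the numbers were 3,381 and 7,871. Both settings kept the excess of stem, which median-ratio scaling did not. Over the 51,814 unigenes above 0 in both, the median log2 ratio was -0.66, which is a stem value 1.58 times the root value. Dividing each library by a median-ratio size factor sets this median to 0 by construction. It thus takes the typical unigene as equal in root and stem, which was not tested. The unigenes above 1 in both libraries then numbered 29,242, with a median log2 ratio of 0.07. Of these, 5,032 were at least 2-fold higher in root and 4,316 in stem, and root held 53.8% of the 2-fold differences instead of 21.6%. For all unigenes with the pseudocount, the same scaling gave 17,051 higher in root and 9,863 in stem, or 63.4% in root instead of 41.8%. At 8-fold it gave 1,085 in root and 539 in stem. Unigenes above 1 in root only then numbered 16,408 and those above 1 in stem only 11,142, the reverse of the order at the deposited FPKM. The low values gave only the relative number of mapped fragments of the libraries, not a shift in expression. For unigenes with very few fragments, FPKM moves in steps. Libraries with the same number of fragments on a unigene then give 1 fixed ratio, set by their sequencing yields. FPKM already corrects for these yields, so this ratio cannot decide between the scalings. Among the 1,447 unigenes between 0.2 and 0.5 FPKM in both libraries, 47.2% lay within 0.1 log2 units of a root to stem ratio of 0.958, or -0.06 on the log2 scale. The FPKM sums, 684,729 in root and 732,443 in stem, differed by -0.10 on the log2 scale. In bulk tissue, fewer cells of a type and less RNA per cell cannot be told apart.

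**Figure D1:**
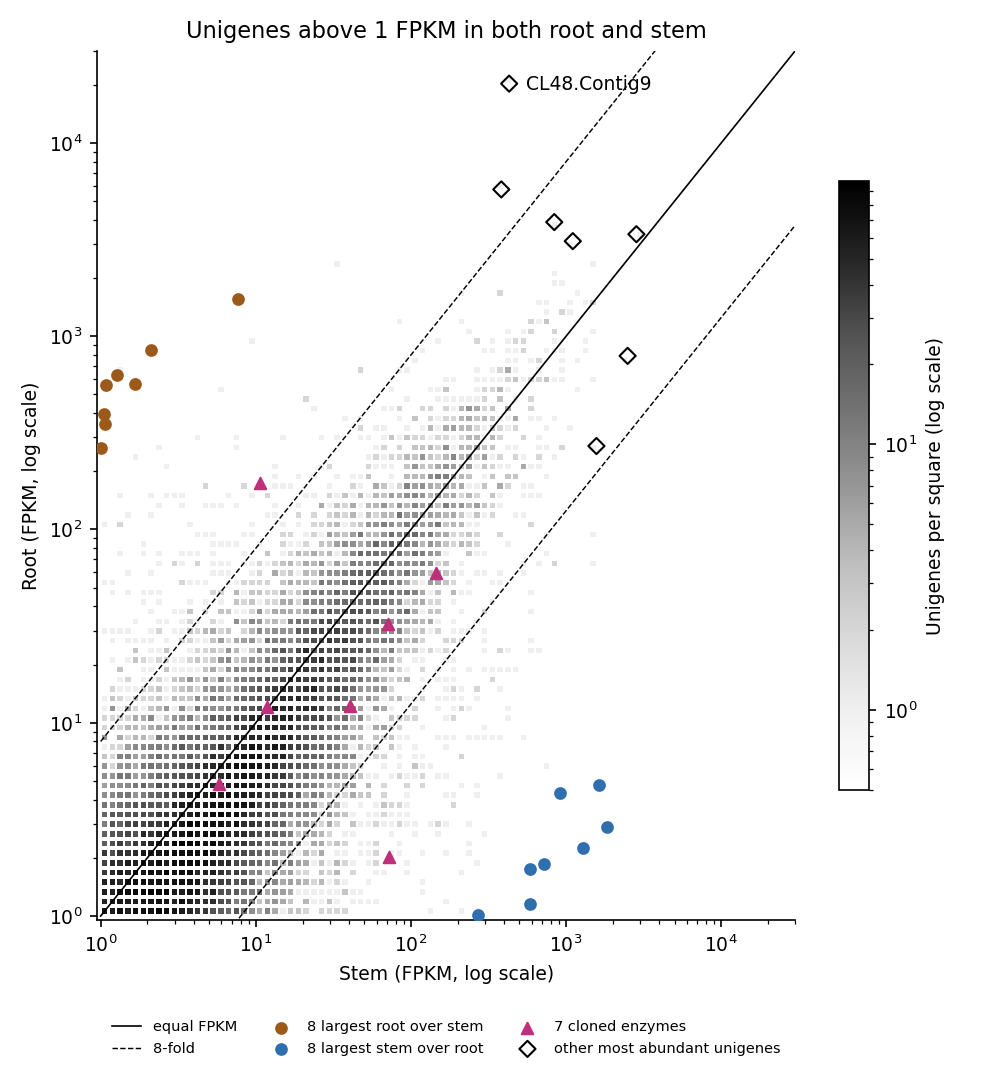
Root FPKM (vertical, log scale) against stem FPKM (horizontal, log scale) for the 28,565 unigenes above 1 FPKM in both libraries, grey squares being shaded by the number of unigenes and dashed lines marking 8-fold differences. The bulk lies below the line of equal FPKM at low levels and meets it at high levels, while the 8 unigenes with the largest ratio in each direction stand far out at 1 to 8 FPKM in the other tissue.

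The spread of the log2 ratios was set beside that of the other pairs of libraries. The distance between their quartiles was 1.33 for root and stem, over 28,565 unigenes, and 1.32 after median-ratio scaling. It was 1.36 between leaf and stem, over 30,969 unigenes, and 1.54 between leaf and root, over 26,104, each taken over the unigenes expressed above 1 FPKM in both. The 3 pairs share libraries, and the difference between them was not tested. Within 2-fold of their own median lay 67.8% of the root and stem ratios and 65.4% of those between leaf and stem.

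The ratio of root to stem changed with the expression level. For each of the 28,565 shared unigenes the level was taken as the geometric mean of its root and stem FPKM. The median log2 ratio was -0.42 for the 8,372 unigenes between 1 and 3 FPKM and reached its lowest value, -0.67, for the 10,893 between 3 and 10 FPKM. It then rose to -0.48 between 10 and 30 FPKM, -0.20 between 30 and 100, 0.09 between 100 and 300 and 0.34 between 300 and 1000. For the 22 unigenes above 1000 FPKM it was 0.55. In the lowest bin the ratio is limited, since both values must exceed 1 FPKM, and only 5 of its unigenes were past 8-fold. The share at least 2-fold higher in stem fell from 37.2% between 3 and 10 FPKM to 13.2% between 100 and 300 FPKM, while the share at least 2-fold higher in root rose from 8.03% to 15.6%. At the deposited FPKM, moderately expressed unigenes were thus mostly lower in root, and abundant ones were not. After median-ratio scaling the median was -0.02 between 3 and 10 FPKM and 0.76 between 100 and 300, so the former were balanced and the latter mostly higher in root. The step between these bins was nearly the same, 0.77 before and 0.78 after scaling. When the unigenes were binned by leaf FPKM, which the ratio does not use, this step was 0.43, with medians of -0.58 between 3 and 10 FPKM and -0.15 between 100 and 300. The share at least 2-fold higher in stem did not keep falling with the leaf level. It was 32.2% between 10 and 30 FPKM, 22.4% between 100 and 300, 29.2% between 300 and 1000 and 30.3% above 1000, and 13.8% and 21.2% of the last pair of bins were past 8-fold towards stem.

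**Figure D2:**
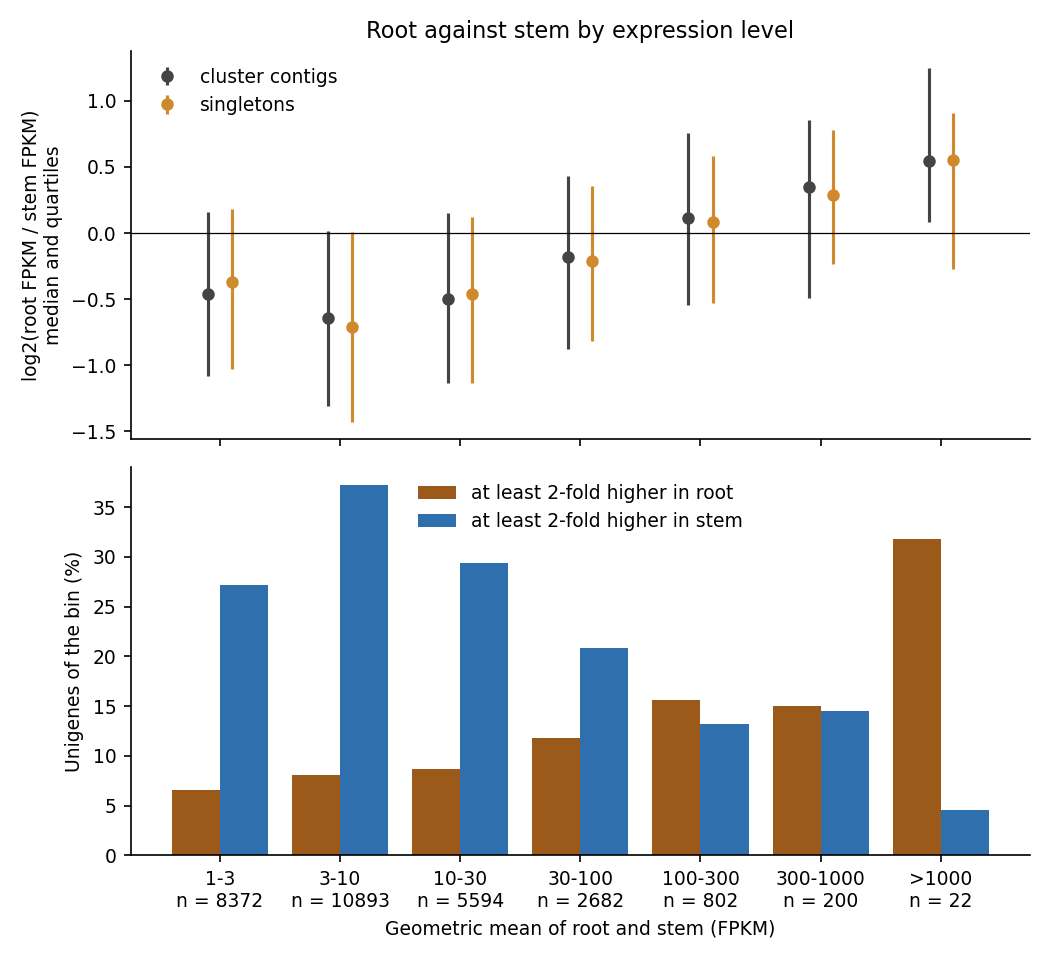
Upper panel, median and quartiles of log2(root FPKM / stem FPKM) in bins of the geometric mean of root and stem, for cluster contigs (dark) and singletons (orange). Lower panel, percentage of the unigenes of each bin at least 2-fold higher in root (brown) or in stem (blue). The medians climb from -0.67 at 3 to 10 FPKM to 0.55 above 1000 FPKM over all unigenes, and contigs and singletons follow each other within 0.1 in every bin.

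Unigenes of the table are either contigs of a cluster (prefix CL), which are similar sequences grouped by the assembly, or singletons (prefix Unigene). Cluster contigs numbered 38,424 and held 60.8% of the root FPKM and 58.6% of the stem FPKM. The 50,167 singletons held the rest. Contigs were more often expressed in both tissues, with 44.4% above 1 FPKM in root and in stem, against 22.9% of singletons. Among these shared unigenes both kinds had nearly the same ratio, with a median log2 ratio of -0.50 for the 17,056 contigs and -0.47 for the 11,509 singletons. At least 2-fold higher in root were 8.38% of the contigs and 8.28% of the singletons, and at least 2-fold higher in stem 30.2% and 30.5%. Their levels were also alike, with a median geometric mean of 5.45 FPKM for contigs and 5.17 for singletons. Within bins of level the medians of contigs and singletons lay close as well, for example -0.65 and -0.71 between 3 and 10 FPKM and 0.11 and 0.08 between 100 and 300 FPKM.

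Over all unigenes the kinds did differ. On the scale of FPKM + 1, 33.7% of the contigs past 2-fold were higher in root, against 47.9% of the singletons. They also differed in the unigenes listed at 0 in 1 of the libraries. Singletons made up 73.5% of the 15,243 unigenes above 0 in root and listed at 0 in stem, and 67.4% of the 14,956 listed at 0 in root only. Most of these were low. The root unigenes listed at 0 in stem had a median of 1.23 FPKM, and 169 of them exceeded 10 FPKM. The stem unigenes listed at 0 in root had a median of 0.73 FPKM, and 64 exceeded 10 FPKM. These groups held 3.89% of the root FPKM and 2.23% of the stem FPKM. They also differed in leaf, which was above 0 for 15.5% of the root unigenes listed at 0 in stem and for 45.9% of the stem unigenes listed at 0 in root. No fold is given for any of them.

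The highest root values among unigenes listed at 0 in stem were 110 FPKM for Unigene34341, 68.6 for Unigene34347, 64.1 for CL5558.Contig2, 62.1 for Unigene34343 and 50.6 for CL3417.Contig1. The first 4 were also listed at 0 in leaf, and CL3417.Contig1 had 0.09 FPKM there. Unigene34341, Unigene34343 and Unigene34347 carry nearly consecutive numbers. Both contigs of CL3417 were listed at 0 in stem, with a sum of 78.5 FPKM in root. The highest stem values among unigenes listed at 0 in root were 140 FPKM for CL441.Contig2, 65.3 for Unigene12361, 51.2 for CL6228.Contig1, 42.1 for Unigene48295 and 40.8 for Unigene57667. Of these, Unigene12361 had 4.34 FPKM in leaf and the others at most 0.41.

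The number in the name of a singleton, which carries no measured value, separated the tissues. Singletons numbered 1 to 20000 were above 0 in both libraries in most cases (90.2% in root and 96.2% in stem). In blocks of 5000 numbers, the share above 0 in root was then 41.0% for 20001 to 25000 and 18.7% for 25001 to 30000, rose to 98.1% for 35001 to 40000 and for 40001 to 45000, and was 26.2% for 50001 to 55000. In stem the share was 57.3% for 20001 to 25000, 9.98% for 35001 to 40000, 9.87% for 40001 to 45000 and 95.3% for 50001 to 55000. The share at least 2-fold higher in root on the scale of FPKM + 1 was 58.3% in the block from 35001 to 40000 and 0.73% in the block from 50001 to 55000. The share at least 2-fold higher in stem was 0.52% and 34.1% in the same blocks. Blocks of 1000 numbers, chosen after seeing these values, placed the change from low to high root detection between 31001 and 33000 and the change from root to stem at 46001.

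Limits were then set on those blocks after seeing them. The 11,911 singletons numbered 31001 to 46000 contained 82.3% of all singletons at least 2-fold higher in root, 6,824 of 8,292. They also contained 87.2% of those above 0 in root and listed at 0 in stem. In this range 57.3% were at least 2-fold higher in root on the scale of FPKM + 1, against 16.5% of all 50,167 singletons. The 9,763 singletons numbered 46001 and above contained 40.9% of the singletons at least 2-fold higher in stem, 3,690 of 9,018. They also contained 61.4% of those above 0 in stem and listed at 0 in root. From 46001 on, 37.8% were at least 2-fold higher in stem, against 17.98% of all 50,167 singletons. Few singletons of these ranges were expressed in both tissues, 3.35% and 5.03%, against 51.4% of the singletons numbered 1 to 20000. Over those expressed in both, the median log2 ratio was -0.47 for the numbers up to 20000, -0.19 for 31001 to 46000 and -0.70 from 46001 on. Without the singletons numbered above 20000, the unigenes at least 2-fold higher numbered 5,525 in root and 13,183 in stem on the scale of FPKM + 1. The cause of this link was not tested.

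**Figure D3:**
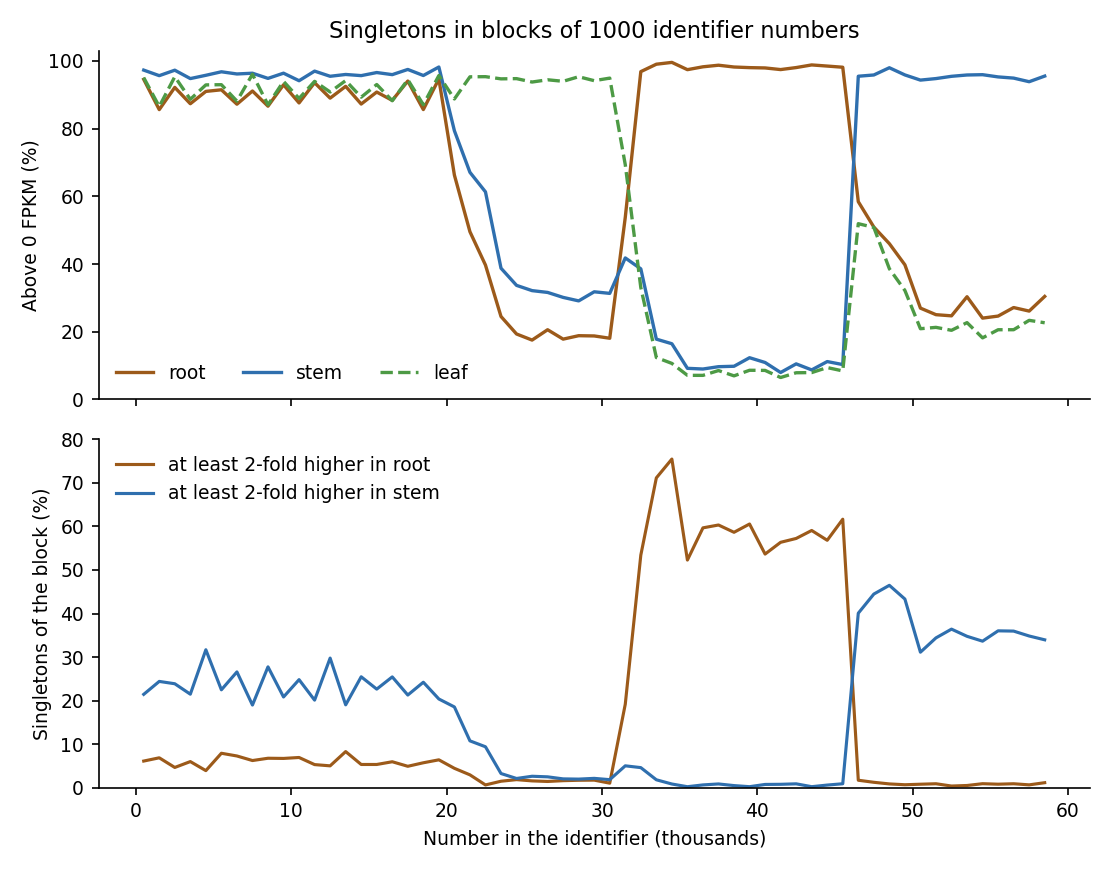
Singletons in blocks of 1000 identifier numbers (horizontal). The upper panel gives the percentage above 0 FPKM in root, stem and leaf, and the lower panel the percentage at least 2-fold higher in root or in stem on the scale of FPKM + 1. From 33001 to 46000 root detection lies between 97.4% and 99.6% and stem detection between 7.95% and 17.8%, and the order turns at 46001.

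Contigs of 1 cluster differed in their ratio by less than 2-fold in most clusters. In 5,267 clusters at least 2 contigs were above 1 FPKM in both libraries, 14,431 contigs in all. The range of log2 ratios within a cluster had a median of 0.72, and in 37.7% of the clusters it reached 2-fold. All such contigs were at least 2-fold higher in stem in 703 clusters (13.3%) and at least 2-fold higher in root in 165 (3.13%). In 150 clusters (2.85%) some contigs were at least 2-fold higher in root and others at least 2-fold higher in stem, and in 3 clusters this was so at 8-fold. Clusters with more contigs have more chances of such a division, which was seen in 1.11% of the clusters with 2 such contigs and in 14.0% of those with 5 to 9. Because RSEM divides fragments shared by similar contigs, the ratios of single contigs are less certain than those of cluster sums. Summed over its contigs, a cluster was at least 2-fold higher in root in 647 cases (7.37% of 8,777) and at least 2-fold higher in stem in 2,877 (32.8%), all at the deposited FPKM.

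The largest clusters leaned to stem at the deposited FPKM, as most clusters did. Of the 29 clusters with 20 or more contigs, 23 had a higher sum in stem, 15 of them at least 2-fold, and 3 had a sum at least 2-fold higher in root. Over all 8,777 cluster sums, 32.8% were at least 2-fold higher in stem and 7.37% in root, and the upper quartile of their log2 ratios was 0.07. The counts of the largest clusters were not repeated after median-ratio scaling. The median log2 ratio of the 29 sums was -1.10, against -0.59 over all 8,777 cluster sums. The largest cluster, CL13014, named here after its values were seen, had 122 contigs and summed to 596 FPKM in root and 1568 in stem. Of its 98 contigs above 1 FPKM in both libraries, 74 were at least 2-fold higher in stem and 0 at least 2-fold higher in root. CL48, with 37 contigs, was the opposite case. Its sum was 25816 FPKM in root, 477 in stem and 3087 in leaf, 35 of the 37 contigs were higher in root, and 16 of them were listed at 0 in stem. The cluster held 3.77% of the root FPKM, and the root FPKM sum was 0.06 higher on the log2 scale with it than without it. Its effect on the FPKM of other unigenes depends on fragment counts and lengths, which were not used.

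The 3 most divided clusters were CL7967, CL10745 and CL5875. In CL7967, Contig3 had 223 FPKM in root and 2.79 in stem, whereas Contig4 had 1.56 in root and 17.6 in stem, a distance of 9.81 between their log2 ratios. In CL10745, Contig3, the second most abundant unigene of root, had a log2 ratio of 3.91, and Contig1 had 11.5 FPKM in root and 200 in stem, a log2 ratio of -4.12. In CL5875, Contig1 had 11.4 FPKM in root and 1.23 in stem, and Contig2 had 2.50 in root and 33.9 in stem. The cluster sums hid these differences to varying degrees, with log2 ratios of 3.44 for CL7967, 3.31 for CL10745 and -0.45 for CL5875. CL11355 held an abundant root contig, Contig1, and a minor contig with a log2 ratio of -2.50.

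**Figure D4:**
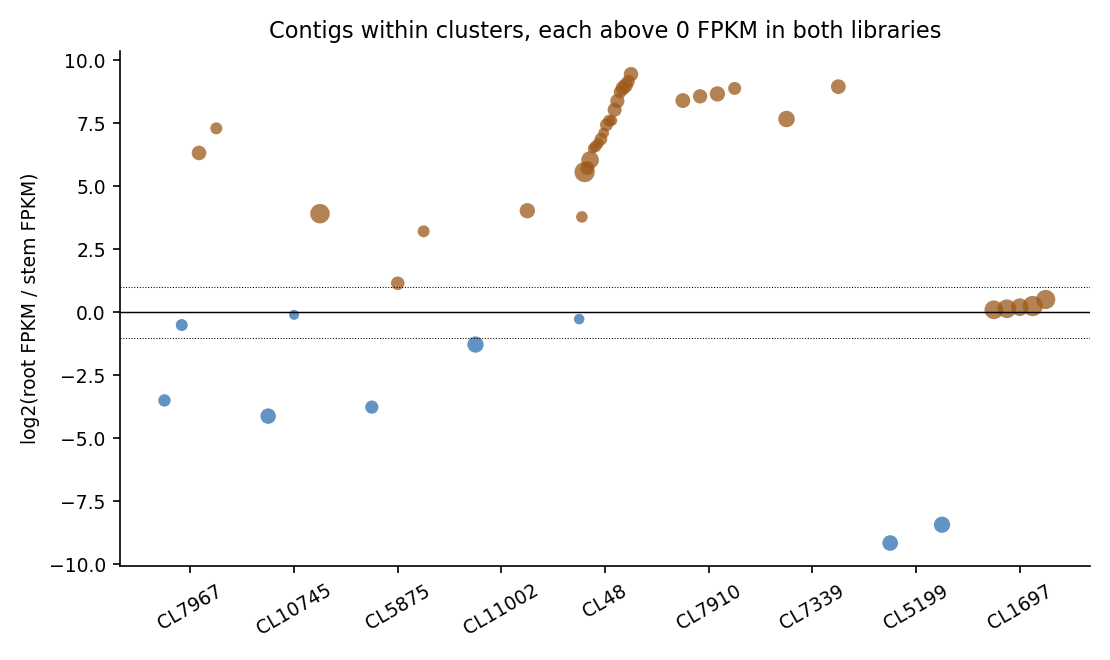
Log2(root FPKM / stem FPKM) of each contig above 0 FPKM in both libraries, by cluster, brown above 0 and blue below, with point size growing with the geometric mean of root and stem FPKM and dotted lines at 2-fold. CL7967, CL10745, CL5875 and CL11002 hold contigs on both sides of 2-fold, CL7910 and CL7339 lie only at high root ratios, CL5199 only at high stem ratios, and the 5 contigs of CL1697 stay between 0.10 and 0.51.

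Among shared unigenes the 8 with the largest ratio of root to stem came from only 3 clusters. CL48.Contig19 had 556 FPKM in root and 1.09 in stem, a ratio of 510. CL48.Contig18, with 353 and 1.06 FPKM, and CL48.Contig23, with 264 and 1.01, belonged to the same cluster. The other 5 came from CL7339 and CL7910. CL7339.Contig1 had 632 FPKM in root and 1.28 in stem, and CL7339.Contig2 had 1553 and 7.65. CL7910.Contig5 had 850 FPKM in root and 2.10 in stem, CL7910.Contig1 had 398 and 1.05, and CL7910.Contig4 had 563 and 1.67. All 8 were at most 2.61 FPKM in leaf. Summed over all contigs, however, CL48 had 3087 FPKM in leaf, against 2.62 for CL7339 and 5.34 for CL7910. All 5 contigs of CL7910 were higher in root, with sums of 1995 FPKM in root and 5.19 in stem, and CL7339 summed to 2185 and 8.93. With stem values this near 1 FPKM, the size of the ratio rests on few fragments, and its counting error is unknown.

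The 8 with the largest ratio of stem to root were spread over 7 clusters or singletons. Unigene13328 had 1837 FPKM in stem and 2.90 in root, a ratio of 633. CL5199.Contig1, with 1278 FPKM in stem and 2.25 in root, and CL5199.Contig3 belonged to a cluster that summed to 2922 FPKM in stem and 7.01 in root. Unigene7441 had 583 FPKM in stem and 1.15 in root. These 4 were at most 5.76 FPKM in leaf. The other 4 were at 22.6 FPKM or more in leaf. Unigene750 had 583 FPKM in stem, 1.76 in root and 655 in leaf. CL12567.Contig1 had 913 FPKM in stem, 4.32 in root and 504 in leaf. Unigene9474 had 720 FPKM in stem, 1.86 in root and 88.5 in leaf, and Unigene4116 had 269, 1.01 and 22.6. The leaders of the stem side thus held unigenes low in leaf and unigenes well above them there. The 8 contigs of the root side were all low in leaf, although the cluster CL48 as a whole was not.

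The leaf library, which plays no part in the ratio, showed the same contrast over the wider lists. The 213 unigenes at least 8-fold higher in root had a median of 1.35 FPKM in leaf, with quartiles of 0.28 and 7.89, and 54.9% of them were above 1 FPKM there. The 564 unigenes at least 8-fold higher in stem had a median of 9.71 FPKM in leaf, with quartiles of 1.88 and 44.6, and 82.4% were above 1 FPKM. Over all 28,565 shared unigenes the median in leaf was 6.01 FPKM and 85.8% were above 1 FPKM. Above 10 FPKM in leaf were 20.2% of the root list, 49.5% of the stem list and 36.2% of all. The lists were alike in the share of cluster contigs, 56.8% on the root side and 55.5% on the stem side. They were not matched for level, with medians of 52.9 FPKM in root for the root list and 33.4 FPKM in stem for the stem list. With a limit of 4-fold the leaf medians were 2.57 FPKM for 671 root unigenes and 6.55 for 2,258 stem unigenes. After median-ratio scaling, the lists at 8-fold had leaf medians of 2.60 FPKM on the root side and 13.3 on the stem side.

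In terms of FPKM rather than of unigenes, 30.3% of the root sum lay in the 12,607 unigenes at least 2-fold higher in root on the scale of FPKM + 1, and 36.3% of the stem sum in the 17,522 at least 2-fold higher in stem. At 8-fold the shares were 9.66% of root and 8.52% of stem. Unigenes within 2-fold held 60.9% of the root sum and 58.1% of the stem sum. After median-ratio scaling the order of the 2-fold shares turned, to 51.4% of the root sum and 21.1% of the stem sum.

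The 7 cloned unigenes placed this comparison in the terpenoid pathways. The study picked them for cloning, so they are no sample of the pathways. It lists further unigenes for each of these enzymes except mevalonate diphosphate decarboxylase. A value here is therefore that of a single unigene, not of the enzyme. Without a pseudocount, 1 of the 7 was at least 2-fold higher in root (8.34% of all shared unigenes) and 4 were at least 2-fold higher in stem (30.3% of all). Their median log2 ratio was -1.13, against -0.49 over the shared unigenes. After median-ratio scaling 1 was at least 2-fold higher in root and 2 in stem. Of the 29,242 unigenes above 1 in both after scaling, 17.2% were so in root and 14.8% in stem.

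In the mevalonate pathway, 3-hydroxy-3-methylglutaryl-CoA reductase (HMGR), which makes mevalonate and is regarded as a main control point of the pathway, was cloned as a pair of contigs of cluster CL11002 with opposite patterns. ArHMGR2 (CL11002.Contig2) had 175 FPKM in root and 10.7 in stem, a log2 ratio of 4.03, and 99.7% of the shared unigenes had a lower ratio. ArHMGR1 (CL11002.Contig1) had 59.5 FPKM in root and 144 in stem, a log2 ratio of -1.28, which was -0.62 after median-ratio scaling. The sum over both contigs, which are all the contigs of that cluster in the table, was 234 FPKM in root and 155 in stem, a log2 ratio of 0.60, so the direction of ArHMGR1 is not that of its cluster. ArMVD (Unigene7594), the mevalonate diphosphate decarboxylase that ends the pathway, had 12 FPKM in root and 11.8 in stem, a log2 ratio of 0.02, which was 0.69 after median-ratio scaling.

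All 4 cloned unigenes of the MEP pathway had a lower FPKM in root than in stem, but for ArDXR the direction turned with the scaling. Most shared unigenes had the same direction at the deposited FPKM. Of all shared unigenes, 70.2% had a lower ratio of root to stem than ArMVD, whose log2 ratio was 0.02. ArDXS (Unigene11038), 1-deoxy-D-xylulose-5-phosphate synthase, the entry enzyme, had 2.01 FPKM in root and 71.8 in stem, a 35.7-fold higher stem value, and 0.18% of the shared unigenes had a lower ratio of root to stem. Its leaf value was 4.16 FPKM, so for this unigene stem stood apart from both other tissues. ArDXR (CL1159.Contig3), the reductoisomerase of the next step, had 4.83 FPKM in root and 5.75 in stem, a log2 ratio of -0.25, which became 0.41 after median-ratio scaling. The 3 contigs of its cluster summed to 8.69 FPKM in root and 11.9 in stem.

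The last 2 steps of the pathway lay between these cases. ArHDS (Unigene5791), the iron-sulfur enzyme of the step before the last, had 32.4 FPKM in root and 70.6 in stem, a log2 ratio of -1.13, which was -0.46 after median-ratio scaling and then within 2-fold. ArHDR (CL1787.Contig4), the reductase that releases isopentenyl diphosphate and its isomer, had 12.2 FPKM in root and 40.3 in stem, a log2 ratio of -1.72, and -1.06 after median-ratio scaling. The other expressed contig of its cluster, CL1787.Contig3, pointed the same way, with 6.47 FPKM in root and 16.8 in stem. Summed, the 4 MEP unigenes had 51.4 FPKM in root and 188 in stem, and the 3 mevalonate unigenes 246 and 167. The higher root sum of the mevalonate unigenes rested on ArHMGR2, without which the sums were 71.5 FPKM in root and 156 in stem.

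**Figure D5:**
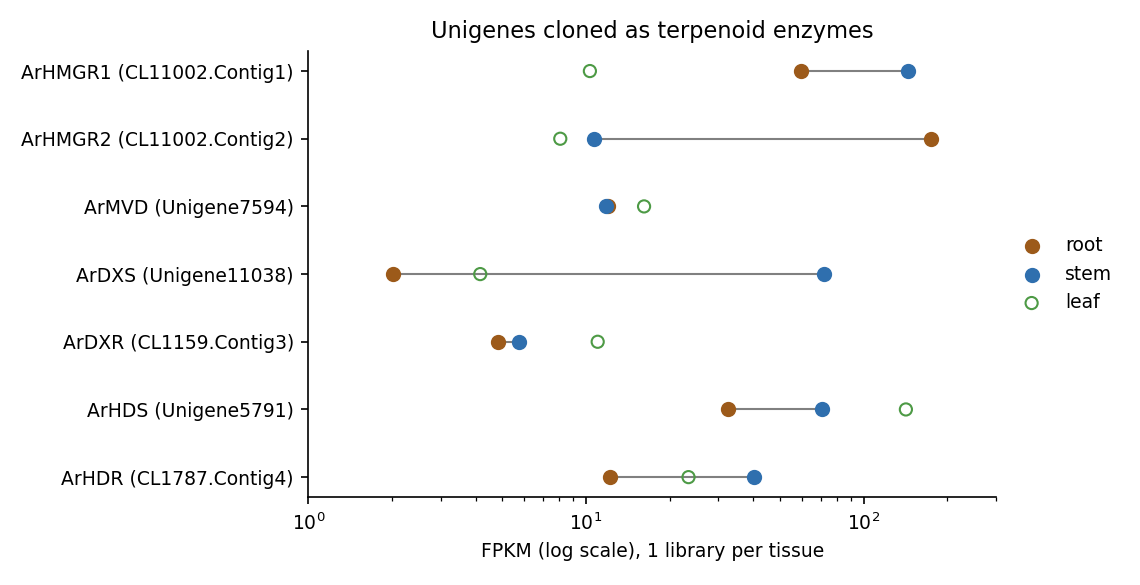
FPKM (log scale) of the 7 cloned unigenes in root (brown), stem (blue) and leaf (open green), 1 library per tissue, with a line joining root and stem. ArHMGR2 is the only one far higher in root, at 175 against 10.7 FPKM, ArDXS has the widest gap towards stem, at 2.01 against 71.8 FPKM, and the FPKM of ArMVD and ArDXR nearly coincide before any scaling.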

How the data were processed

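RNA of leaf, root and stem was sequenced as 1 library per tissue. After read filtering, the authors built unigenes with Trinity, clustered them with TGICL, aligned each library to them with Bowtie2 and quantified with RSEM, which divides fragments shared by similar contigs. The deposited values are FPKM to 2 decimals. Trimmomatic is named in the labels. FPKM depends on the composition of the library, since abundant unigenes lower all others. Per-unigene depth is unknown.

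Log2 ratios of root to stem were taken with a pseudocount of 1 over all unigenes, and without one over unigenes above 1 FPKM in both. Tables were handled with pandas 2.3.3 and numpy 2.4.6 under Python 3.11.15, figures drawn with matplotlib 3.10.9 and intervals taken from scipy 1.17.1. The steps were tested on simulated data. With 1 library per tissue no test was made. Median-ratio size factors were 0.795 for root and 1.26 for stem. The alternatives were other pseudocounts, thresholds and scalings. The comparison and the lists were chosen with earlier results of these data known. Named by rule were the 7 cloned unigenes, the 8 shared unigenes with the largest ratio each way, the 5 most abundant of each library, the 5 highest listed at 0 in the other library, the 3 most divided clusters and CL48. Sequences and annotation were not analysed here.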

Additional observations from a re-analysis of the deposited data

How the results depend on the processing

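No paired analysis was possible because each tissue has 1 library, and for the same reason no library could be left out. Of 144 values under alternative settings, 72 stayed within the limits set for a change (1.5 times for a count), 68 moved and 4 changed sign; the cause was not tested except where the setting itself sets it. On the scale of FPKM + 1, the unigenes at least 2-fold higher in root numbered 21,589 with a pseudocount of 0.01, 21,223 with 0.1 and 6,528 with 2, and 5,525 without the singletons numbered above 20000. Those higher in stem numbered 35,963 with a pseudocount of 0.01, 34,562 with 0.1, 26,461 with 0.5 and 9,425 with 2, and 9,863 after median-ratio scaling. The median log2 ratio over all unigenes was -0.44 with a pseudocount of 0.01, -0.41 with 0.1, -0.32 with 0.5 and -0.16 with 2, -0.22 with TPM, 0 after median-ratio scaling, -0.14 without the 100 most abundant unigenes of each library and the rest scaled to equal sums, -0.436 over unigenes above 1 FPKM in root or stem, and -0.38 without the singletons numbered above 20000. Over the unigenes above 1 FPKM in both, those at least 2-fold higher in root numbered 5,032 after median-ratio scaling, and 6,404 above 0, 3,585 above 0.5 and 957 above 5 FPKM in both. Those higher in stem numbered 4,316 after median-ratio scaling, and 21,147 above 0, 5,451 above 2 and 2,496 above 5 FPKM in both. The median was -0.42 with TPM, 0.069 after median-ratio scaling, -0.32 without the 100 most abundant, and -0.66 above 0, -0.53 above 0.5, -0.44 above 2 and -0.31 above 5 FPKM in both. Expressed in root only were 7,074 unigenes at 2 FPKM and 2,481 at 5 FPKM, and in stem only 6,781 at 5 FPKM. The step in the median from 3 to 10 FPKM to 100 to 300 FPKM was 0.43 with bins of leaf FPKM. The median of contigs minus that of singletons was -0.03, -0.11 with FPKM summed per cluster and 0.0080 after median-ratio scaling. Clusters divided at 2-fold numbered 41 among contigs above 5 FPKM, and 14 were divided at 4-fold. The value counted for ArHMGR1 turned to 0.60 when its cluster was summed, and that of ArDXR to 0.41 after median-ratio scaling. The sum for ArHMGR1 is that of ArHMGR1 and ArHMGR2, with 74.6% of the root FPKM in ArHMGR2. It is therefore no other estimate of ArHMGR1. The alternatives without the singletons numbered above 20000 and without CL48 were chosen after seeing the data. Leaving out CL48 changed the counts at 2-fold by less than 1.5 times. Only its 37 contigs were dropped and the other unigenes were not rescaled, so a larger change was not possible. This setting therefore cannot show an effect of CL48 on the ratios of other unigenes.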

Other observations

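The leaf library had its own range of identifier numbers. Singletons numbered 20001 to 31000 were above 0 in leaf in 94.1% of cases, against 29.5% in root and 43.8% in stem. On the scale of FPKM + 1, they held 2.03% of the singletons at least 2-fold higher in root. They held 5.43% of those at least 2-fold higher in stem. Of these 8,695 singletons, 1.93% were at least 2-fold higher in root and 5.64% in stem. Over all 50,167 singletons the shares were 16.5% and 17.98%. The limits of this range were set after the values were seen. In the ranges where root or stem detection was high, leaf was above 0 in 14.4% of the singletons numbered 31001 to 46000 and in 29.0% of those from 46001 on.

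Several of the largest clusters after CL13014, named here after their values were seen, were lower in root as well. CL12884, with 72 contigs, summed to 94.5 FPKM in root and 331 in stem, CL235, with 35 contigs, to 63.3 and 207, and CL378, with 34 contigs, to 42.6 and 259. In these 3 clusters 0 of the contigs above 1 FPKM in both libraries was at least 2-fold higher in root. Of the 29 clusters with 20 or more contigs, 23 had a higher sum in stem, while CL48, CL12442 and CL110 had a sum at least 2-fold higher in root. CL12442, with 25 contigs, summed to 947 FPKM in root and 71.9 in stem, and CL110, with 20 contigs, to 331 and 146.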
